A study of Mus musculus with 2 samples.

Results

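The forkhead genes encode transcription factors that share the forkhead box, a winged-helix DNA-binding domain, and are named Fox with a letter for the subfamily. They were chosen by name alone: every row of the gene table whose symbol was FOX, a letter from A to S and a number, with an optional further letter and digit. The rule found 44 genes in 19 subfamilies, among 34376 rows in all. A differentiated library was compared with an undifferentiated one. Both came from E14, an embryonic stem (ES) cell line of 129P2/OlaHsd mice. The differentiated cells had spent 4.5 days with all-trans retinoic acid at 0.1 µM and 10% serum, without feeder cells, and were harvested as a mixed population of which about 8% were dead. The undifferentiated cells, of the same passage, 29, and with about 2% dead, were grown in 15% serum with leukaemia inhibitory factor on mitomycin-treated embryonic fibroblasts, which were then removed by adsorption to an estimated remainder below 0.25%. Each library was read on 2 lanes, so lanes are repeat readings of 1 culture, and no difference below has a replicate culture or a test behind it.

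Most forkhead factors bind DNA as monomers, and several members of the family, the FoxA proteins first among them, open closed chromatin for other regulators. FoxA factors are known for endoderm, FoxC and FoxF for mesoderm and vessels, FoxD3 and FoxH1 for pluripotent cells and gastrulation, FoxO for the response to insulin and growth factors, and FoxM1 for the genes of mitosis. Retinoic acid acts through nuclear receptors and turns ES cells towards neural, mesodermal or extraembryonic endoderm fates depending on the culture.

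Levels are in RPKM, reads per kilobase of the gene model, scaled to the depth of the lane. The SD between both lanes of 1 library follows each mean after ±. Ratios are log2 of (differentiated RPKM + 1) over (undifferentiated RPKM + 1), a scale that understates differences of weakly expressed genes. A 2-fold ratio on this scale made a gene higher or lower, provided that it reached 1 RPKM in either library, a bound called the floor here. The lanes stood for about 33100000 and 32000000 reads in the differentiated library and 37800000 and 36200000 reads in the undifferentiated library. All 8 ES cell markers were lower in the differentiated library, with sums of 317 and 310 RPKM in its lanes against 3559 and 3562 RPKM in the undifferentiated lanes. All 8 extraembryonic endoderm markers were higher, with sums of 524 and 549 RPKM in the differentiated and 7.32 and 8.67 RPKM in the undifferentiated lanes. Of 9 fibroblast markers that passed the floor, 5 were higher and none was lower. All 10 listed markers summed to 282 and 280 RPKM in the differentiated and 40.5 and 36.9 RPKM in the undifferentiated lanes. In RNA from a whole culture, fewer cells of a type and less RNA per cell cannot be told apart, and the part of the cell types in the results below was not tested.

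Promoter windows of 5 starts are shown for the genes that the results turn on: the main start and a second start of Foxa2, and the starts of its relative Foxa1 and of Foxc1, all higher after differentiation, and that of Foxd3, the member furthest below. The windows run from 250 bases before to 50 bases after the transcription start and come from RefSeq on build GRCm38.p6, where 33 windows of 28 forkhead genes were found. The motifs searched on both strands were AGGTCA, the core of retinoic acid receptor sites, TGTTTAC, the forkhead motif, AGATAA, the GATA motif, CCAAT, and TATAAA. Capitals mark each match.
Foxa2 main start, chr2:148045899-148046198, minus strand: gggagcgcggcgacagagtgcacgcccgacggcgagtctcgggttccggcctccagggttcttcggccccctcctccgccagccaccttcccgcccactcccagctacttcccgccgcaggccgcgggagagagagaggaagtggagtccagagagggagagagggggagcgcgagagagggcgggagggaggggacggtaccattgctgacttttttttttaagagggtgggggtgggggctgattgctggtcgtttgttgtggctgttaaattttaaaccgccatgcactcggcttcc
Foxa2 downstream start, chr2:148045415-148045714, minus strand: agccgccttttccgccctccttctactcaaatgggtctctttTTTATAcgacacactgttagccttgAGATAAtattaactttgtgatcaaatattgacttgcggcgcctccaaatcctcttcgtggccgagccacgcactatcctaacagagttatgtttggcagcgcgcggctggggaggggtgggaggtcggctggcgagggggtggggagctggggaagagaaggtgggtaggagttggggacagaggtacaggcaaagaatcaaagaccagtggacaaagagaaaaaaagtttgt
Foxa1, chr12:57546062-57546361, minus strand: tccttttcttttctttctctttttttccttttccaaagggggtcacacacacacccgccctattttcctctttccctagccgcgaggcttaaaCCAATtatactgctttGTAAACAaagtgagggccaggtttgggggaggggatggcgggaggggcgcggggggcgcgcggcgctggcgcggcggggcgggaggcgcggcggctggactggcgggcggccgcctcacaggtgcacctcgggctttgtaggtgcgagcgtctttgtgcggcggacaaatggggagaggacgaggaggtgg
Foxc1, chr13:31806396-31806695, plus strand: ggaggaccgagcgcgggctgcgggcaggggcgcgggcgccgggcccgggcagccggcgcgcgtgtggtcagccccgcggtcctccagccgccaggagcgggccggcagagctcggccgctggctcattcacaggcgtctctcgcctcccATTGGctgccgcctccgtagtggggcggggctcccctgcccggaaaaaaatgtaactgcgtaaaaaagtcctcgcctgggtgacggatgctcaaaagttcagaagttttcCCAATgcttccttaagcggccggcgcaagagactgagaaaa
Foxd3, chr4:99656049-99656348, plus strand: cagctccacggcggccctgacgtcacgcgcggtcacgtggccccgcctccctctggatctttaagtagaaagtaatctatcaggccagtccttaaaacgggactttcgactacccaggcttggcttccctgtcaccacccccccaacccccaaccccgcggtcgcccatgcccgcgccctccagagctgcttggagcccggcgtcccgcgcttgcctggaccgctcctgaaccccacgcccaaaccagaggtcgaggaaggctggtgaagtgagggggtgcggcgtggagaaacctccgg
The main Foxa2 window and the Foxd3 window held none of the 5 motifs, and were rich in CpG, with 23 and 25 CpG dinucleotides against a median of 7 over all 32851 windows. The Foxa1 window was the only forkhead window with the forkhead motif, and the downstream Foxa2 window held a GATA and a TATA match. Over all forkhead windows, 15.2% held AGGTCA, against 16.3% of all windows. The forkhead motif stood in 3.03% of forkhead windows against 3.65% of all, the GATA motif in 6.06% against 11.2%, CCAAT in 45.5% against 37.4%, and TATAAA in 9.09% against 13.6%. The direct repeat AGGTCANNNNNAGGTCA was in no forkhead window and in 0.00913% of all windows. A match is a string of letters and was not tested as a binding site. The median forkhead window had 22 CpG and 62.7% G and C, against 7 CpG and 52.7% over all windows.

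Across the family, more members were higher than lower after differentiation, and all rows leaned the same way. Of 44 members, 13 stood 2-fold or more above their undifferentiated level and 4 stood 2-fold or more below it, 29.5% and 9.09% of the family. Over all 34376 rows 10.0% were higher and 4.43% were lower. The floor was reached by 28 members, 63.6% of the family beside 52.4% of all rows. A 2-fold ratio on this scale needs at least 1 RPKM in 1 library, so the 13 and 4 genes had to stand among these 28. Among the 18019 rows at the floor, 19.1% were higher and 8.46% were lower. The floor admits a gene through the library in which it is high: 10 members passed by the differentiated library alone and 4 by the undifferentiated library alone. Of the 18019 rows at the floor, 14978 passed in both libraries. Among the 14 members at 1 RPKM or more in both libraries, 4 were higher, 1 was lower and 9 lay between, beside 15.7% higher and 7.36% lower of all rows that passed in both. The median log2 ratio of the 28 members was 0.90 and that of all rows at the floor was 0.12. Over all 44 members it was 0.40. Among the 28, only 2 had lanes that overlapped between the libraries, so separate lanes set few members apart. No share of all rows with separate lanes is given here.

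**Figure D1:**
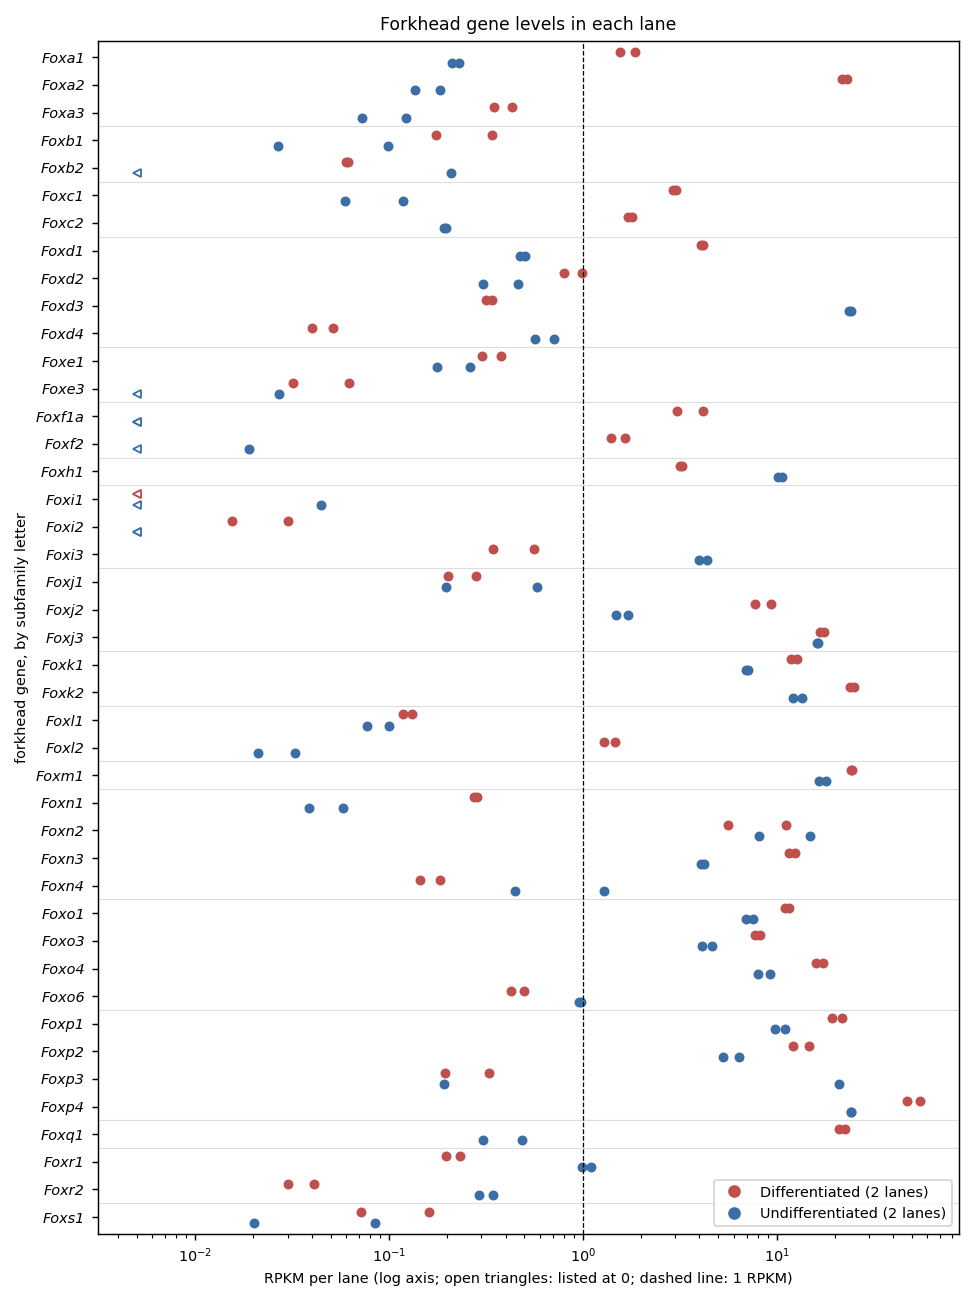
RPKM of 43 forkhead genes in each lane on a log axis, with the differentiated lanes above the undifferentiated lanes of each gene and lanes listed at 0 as open triangles. Foxa2, Foxq1, Foxf1a, Foxf2 and Foxd3 show wide gaps between libraries, and Foxp3 shows the widest gap between lanes of 1 library.

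The 3 highest members held about the same share of the family sum in both libraries, 33.4% in the differentiated and 34.7% in the undifferentiated library. Foxp4 and Foxm1 were among them in both libraries, beside Foxk2 in the differentiated and Foxd3 in the undifferentiated library. In the differentiated library they were Foxp4, Foxk2 and Foxm1, at 51.2 ± 5.55, 24.5 ± 0.686 and 24.4 ± 0.172 RPKM, with Foxa2 at 22.4 ± 1.10 and Foxq1 at 21.7 ± 1.05 RPKM next in order. The lanes of Foxk2 and Foxm1 overlapped, as did those of Foxa2 and Foxq1. In the undifferentiated library the order began with Foxp4 at 24.2 ± 0.131 and Foxd3 at 24.0 ± 0.319 RPKM, whose lanes overlapped, followed by Foxm1 at 17.3 ± 1.06 RPKM. Levels of 10 RPKM or more were found for 12 members in the differentiated and 9 in the undifferentiated library. The family summed to 299 and 301 RPKM in the differentiated lanes, and to 172 and 205 RPKM in the undifferentiated lanes. Without Foxp3, which differed between the undifferentiated lanes, these sums were 299 and 301 against 172 and 184 RPKM.

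Among the FoxA genes, Foxa2 had by far the widest difference. Foxa2, the pioneer factor of definitive and visceral endoderm that also marks the node and the floor plate (mm9 chromosome 2, 147868613 to 147872782, minus strand), had 21.7 and 23.2 RPKM in the differentiated lanes, against 0.136 and 0.183 RPKM in the undifferentiated lanes. The lanes of the libraries lay far apart, and the log2 ratio was 4.34, the highest of the family. The differentiated mean was 141 times the undifferentiated mean. Foxa1, its relative in endoderm-derived organs, had 1.86 and 1.56 RPKM in the differentiated and 0.231 and 0.213 RPKM in the undifferentiated lanes, a log2 ratio of 1.15. Foxa3, a liver and gut member, stayed below the floor, with means of 0.392 RPKM in the differentiated and 0.0977 RPKM in the undifferentiated library. All 3 FoxA genes had higher values in every differentiated lane than in any undifferentiated lane, and Foxa2 held the larger part of the subfamily sum in the differentiated library.

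Nearly all Foxa2 signal came from 1 of its 3 annotated starts. The start at the middle of the 3 had 20.2 and 22.5 RPKM in the differentiated lanes, against 0.136 and 0.182 RPKM in the undifferentiated lanes, and held 95.1% and 99.9% of the gene sum in those libraries. The downstream start had 1.43 and 0.728 RPKM in the differentiated lanes and was listed at 0 in both undifferentiated lanes, and the upstream start had at most 0.0313 RPKM in any lane. These are the main and downstream windows printed above, matched by their order and by a spacing of 484 bases in both the mm9 table and the RefSeq windows; the upstream start is spaced differently in the sources, 1098 and 1021 bases, and its window is not shown.

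Most listed genes that accompany FoxA factors in endoderm and reached the floor were higher. The list holds all 8 extraembryonic endoderm markers counted earlier, among them the 3 genes named below. Those 8 are part of its higher genes, so this is not a separate observation. Of 18 listed, 13 reached the floor, 11 of these were higher, none was lower and the median log2 ratio was 3.58. Over all 18 it was 1.51. Among all rows at the floor, 19.1% were higher and 8.46% lower, with a median of 0.12. The largest ratios in the list belonged to Cubn, the yolk sac receptor cubilin, at 129 ± 0.356 RPKM in the differentiated and 1.08 ± 0.160 RPKM in the undifferentiated library (5.97), Gata4, a zinc finger factor of endoderm and heart, at 123 ± 7.94 and 1.10 ± 0.245 RPKM in the same order (5.89), and Dab2, an endocytic adaptor, at 148 ± 12.3 and 2.96 ± 1.21 RPKM (5.24). Markers of the floor plate and neural tube, where Foxa2 is also active, gave none higher and 1 lower of 6 at the floor, with a median of -0.24, while the median of all 10 listed was 0.08. The lower one was Ntn1, the guidance cue netrin, at 3.15 ± 0.439 RPKM in the differentiated and 8.23 ± 0.919 RPKM in the undifferentiated library (-1.15). Of those between the bounds, Spon1 had the largest ratio upwards, at 1.57 ± 0.120 and 0.442 ± 0.0163 RPKM in the same order (0.84). Nkx6-2 had the largest downwards, at 1.38 ± 0.123 and 2.67 ± 0.290 RPKM (-0.63).

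**Figure D2:**
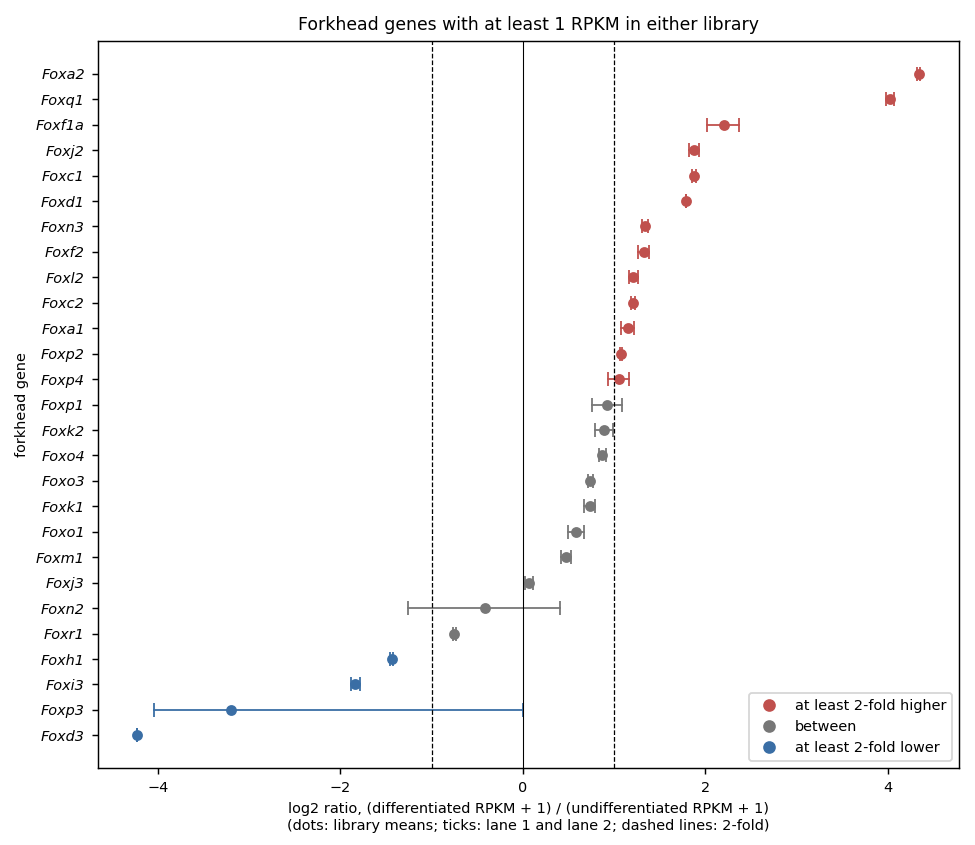
Log2 ratio, with 1 RPKM added, of 27 forkhead genes that reached 1 RPKM in either library; dots are library means, ticks are the single lanes and dashed lines mark 2-fold. The 13 higher genes run from Foxp4 at 1.05 to Foxa2 at 4.34, the ticks of Foxp3 and Foxn2 lie far apart, and the point of Foxf1a, set against levels listed at 0, gives no fold.

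Foxd3, Foxi3 and Foxh1 made up the lower side together with Foxp3. Foxd3, a repressor needed to maintain ES cells and later expressed in neural crest (chromosome 4, 99322990 to 99325362, plus strand), had 0.319 and 0.342 RPKM in the differentiated lanes, against 23.8 and 24.2 RPKM in the undifferentiated lanes. The log2 ratio was -4.23 in the means and in both lanes, and the undifferentiated mean was 72.7 times the differentiated mean. Its model is a single exon, in which the value of 1 read can be worked out, and the libraries held 51 and 4211 reads for it. Counting error alone gave 95% Poisson intervals of 0.246 to 0.434 RPKM in the differentiated and 23.3 to 24.7 RPKM in the undifferentiated library.

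The other FoxD genes differed from Foxd3 in direction or level. Foxd1, a factor of kidney stroma, had 4.07 and 4.19 RPKM in the differentiated and 0.473 and 0.505 RPKM in the undifferentiated lanes, a log2 ratio of 1.79. Foxd2 stayed just below the floor, with 0.892 ± 0.132 RPKM in the differentiated and 0.385 ± 0.111 RPKM in the undifferentiated library. Foxd4 was at 0.0458 ± 0.00824 RPKM in the differentiated and 0.636 ± 0.101 RPKM in the undifferentiated library, from 7 and 110 reads. The lanes of the libraries did not overlap for any of these 4 genes. The subfamily sum was 5.40 RPKM in the differentiated and 25.5 RPKM in the undifferentiated library, nearly all of the second from Foxd3.

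Foxh1, the DNA-binding partner of Smad2 and Smad3 in Nodal signalling, had 3.18 and 3.27 RPKM in the differentiated and 10.2 and 10.7 RPKM in the undifferentiated lanes, a log2 ratio of -1.44. Foxi3, a factor of ectodermal placodes and teeth, had 0.346 and 0.562 RPKM in the differentiated and 3.99 and 4.39 RPKM in the undifferentiated lanes (-1.84). Both were lower in each differentiated lane than in any undifferentiated lane. The other FoxI genes are described with the silent members below. Beside 19.1% higher and 8.46% lower of all rows at the floor, 14 Nodal pathway genes that passed it gave 4 higher and 5 lower. Their median was -0.04, while the median of all 16 listed was 0.07. Large ratios were those of Tdgf1, the co-receptor Cripto, at 9.20 ± 1.37 RPKM in the differentiated and 227 ± 6.69 RPKM in the undifferentiated library (-4.48) and of the ligand gene Nodal at 1.14 ± 0.117 and 17.0 ± 1.38 RPKM in the same order (-3.08).

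Forkhead genes lie less than 500 kb from each other on chromosomes 13, 8 and 4. On chromosome 13 Foxq1, Foxf2 and Foxc1 follow each other on the same strand, with 64.8 kb between the first pair and 175 kb between the second. All 3 were higher after differentiation. Foxq1, a factor of hair follicles and several epithelia (31650039 to 31652845), had 21.0 and 22.5 RPKM in the differentiated and 0.306 and 0.484 RPKM in the undifferentiated lanes. The lanes stood for about 1946 and 2019 reads against 32.5 and 49.1 reads, and the log2 ratio was 4.03, the second highest of the family. Foxf2, a factor of gut and palate mesenchyme, had 1.41 and 1.65 RPKM in the differentiated lanes, against 0 and 0.0189 RPKM in the undifferentiated lanes (1.33). Foxc1, a factor of mesoderm, vessels and the anterior eye (31898515 to 31902512), had 2.94 and 3.03 RPKM in the differentiated and 0.0596 and 0.118 RPKM in the undifferentiated lanes (1.87), from 776 and 26 reads. Foxq1 stood at a level several times that of its neighbours in the differentiated library.

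On chromosome 8 the order is Foxf1a, Foxc2 and Foxl1, all on the plus strand, with gaps of 29.2 and 8.79 kb. Foxf1a, also called Foxf1, a factor of extraembryonic and splanchnic mesoderm, had 3.06 and 4.15 RPKM in the differentiated lanes and was listed at 0 in both undifferentiated lanes. It counts among the higher genes, but no fold is given against 0. Foxc2, which acts with Foxc1 in mesoderm and in lymphatic vessels, had 1.71 and 1.80 RPKM in the differentiated and 0.193 and 0.197 RPKM in the undifferentiated lanes (1.21). Foxl1, a marker of gut mesenchyme, stayed low in both, with 0.125 ± 0.00954 RPKM in the differentiated and 0.0884 ± 0.0161 RPKM in the undifferentiated library. So the last gene of the row, 8.79 kb from Foxc2, did not share the difference of the other 2. The row of Galnt2 joins distant loci and spans all 3. Foxd2 and Foxe3 on chromosome 4, 16.2 kb apart, were both below the floor. Foxl2, a factor of ovarian granulosa cells and the eyelid with no forkhead neighbour within 500 kb on chromosome 9, had 1.28 and 1.47 RPKM in the differentiated and 0.0210 and 0.0329 RPKM in the undifferentiated lanes (1.21), from 226 and 5 reads. Counting intervals were 1.20 to 1.57 RPKM and 0.00871 to 0.0626 RPKM in the same order. The row of Foxl2os on the other strand ends 296 bases before it and had 2.19 and 1.52 RPKM in the differentiated and 0.0558 and 0 RPKM in the undifferentiated lanes, and the labels name no step that marks the strand of a read.

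**Figure D3:**
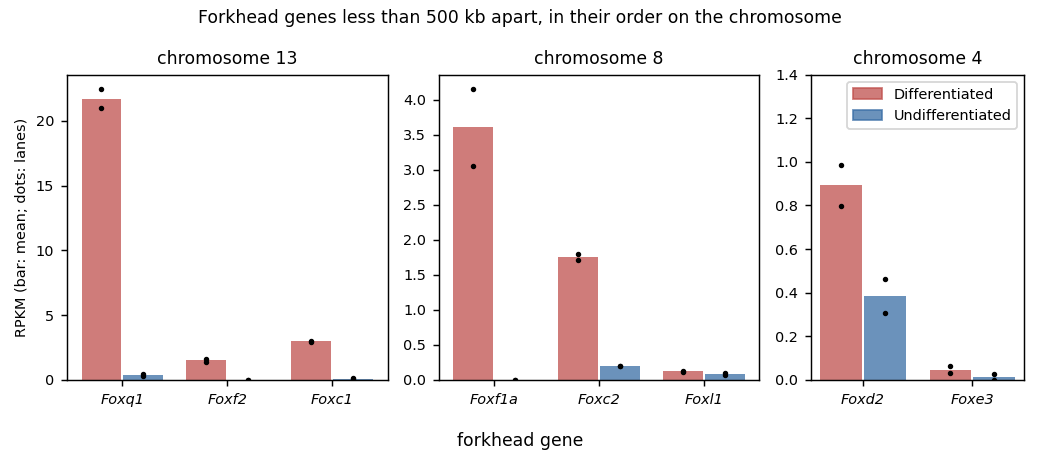
RPKM of forkhead genes less than 500 kb apart, in their order on the chromosome, with the differentiated bar left of the undifferentiated bar; bars are means, dots are lanes, and each panel has its own scale. Foxq1, Foxf2, Foxc1, Foxf1a and Foxc2 were higher in the differentiated library, while Foxl1 and Foxe3 reached at most 0.132 RPKM in any lane.

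Genes of the hedgehog pathway, which acts upstream of FoxF genes in mesenchyme, gave 4 higher and 1 lower of 9 at the floor, with a median of 0.34. The largest ratios were those of the effector gene Gli3 at 12.8 ± 0.422 RPKM in the differentiated and 1.72 ± 0.489 RPKM in the undifferentiated library (2.34), the ligand gene Ihh at 5.23 ± 1.03 and 0.318 ± 0.122 RPKM in the same order (2.24), and the transducer gene Smo at 27.2 ± 1.22 and 6.20 ± 0.220 RPKM (1.97). The floor left 5 vascular mesoderm genes, 2 higher and 1 lower, with a median of 0.42. Beside both lists, 19.1% of all rows at the floor were higher and 8.46% lower, with a median of 0.12. Flt1, a VEGF receptor gene, was at 32.7 ± 0.770 and 0.828 ± 0.189 RPKM in the same order (4.21), Pecam1, an adhesion receptor also made by ES cells, at 1.26 ± 0.182 and 15.9 ± 3.71 RPKM (-2.90), and Cdh5, the endothelial cadherin, at 1.73 ± 0.286 and 0.180 ± 0.105 RPKM (1.21).

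FoxP genes had the highest subfamily sum in both libraries. Foxp4, expressed widely in developing epithelia, had 47.3 and 55.1 RPKM in the differentiated and 24.3 and 24.1 RPKM in the undifferentiated lanes (1.05). Foxp2, known for brain circuits of vocal learning and for lung epithelium, had 14.7 and 12.2 RPKM in the differentiated and 6.38 and 5.32 RPKM in the undifferentiated lanes (1.08). Foxp1, a repressor with a splice form known from ES cells, had 21.9 and 19.4 RPKM in the differentiated and 9.79 and 11.1 RPKM in the undifferentiated lanes (0.92). These 3 genes stood close to 2-fold on both sides of it. With ratios centred on the median of all rows, Foxp2 was at 0.94 and Foxp4 at 0.91, between the bounds. In lane 1 alone, Foxp4 was at 0.93 and Foxp1 at 1.08.

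Foxp3, the master regulator of regulatory T cells, was called lower on the strength of 1 lane. It had 0.196 and 0.330 RPKM in the differentiated lanes, against 0.193 and 21.0 RPKM in the undifferentiated lanes. The log2 ratio was -3.20 in the means, 0.00 in lane 1 and -4.05 in lane 2. Of the 21.0 RPKM in lane 2, all but a small remainder was assigned to 1 of 4 transcript models, which starts at 7163435 on chromosome X and had 0.193 RPKM in lane 1. Lanes of 1 library share their RNA, so the call rests on a single reading. The models of Ppp1r3f and Ccdc22 on the other strand overlap the gene, and their values were close between lanes, at 3.89 and 3.76 RPKM and at 7.08 and 6.53 RPKM in the undifferentiated library.

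FoxO proteins are kept out of the nucleus by growth factor signalling through Akt, and 3 of the 4 FoxO genes stood moderately higher. Foxo4 had 17.3 and 16.0 RPKM in the differentiated and 9.28 and 8.03 RPKM in the undifferentiated lanes (0.87). Foxo1 had 11.1 and 11.6 RPKM in the differentiated and 7.56 and 6.92 RPKM in the undifferentiated lanes (0.58). Foxo3 had 7.75 and 8.26 RPKM in the differentiated and 4.14 and 4.66 RPKM in the undifferentiated lanes (0.74). All 3 lay between the 2-fold bounds, with each differentiated lane above each undifferentiated lane. Foxo6, a brain member, went the other way below the floor, at 0.464 ± 0.0509 RPKM in the differentiated and 0.968 ± 0.00868 RPKM in the undifferentiated library.

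Upstream of the FoxO proteins, 7 of 14 genes were higher and 1 lower, with a median of 1.14. All rows at the floor had 19.1% higher and 8.46% lower, with a median of 0.12. The kinase gene Akt1 was at 92.5 ± 0.609 RPKM in the differentiated and 14.2 ± 0.412 RPKM in the undifferentiated library (2.62), the receptor gene Igf1r at 27.8 ± 1.41 and 2.99 ± 0.151 RPKM in the same order (2.85), and the kinase gene Sgk1 at 22.9 ± 6.75 and 149 ± 3.92 RPKM (-2.64). Among FoxO target genes, 16 of 18 passed the floor, 7 of them higher and 3 lower, with a median of 0.52. Sesn3, a stress-induced sestrin, was at 59.2 ± 0.199 and 8.04 ± 0.569 RPKM (2.74), Ccng2, an unconventional cyclin, at 19.9 ± 0.418 and 2.87 ± 0.496 RPKM (2.43), and Cdkn1a, the cell cycle inhibitor p21, at 152 ± 2.08 and 28.5 ± 2.62 RPKM (2.37).

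FoxK genes and Foxm1 were expressed in both libraries. Foxk2 and Foxk1, which repress autophagy genes together with the Sin3 complex, stood at 25.0 and 24.0 RPKM and at 12.8 and 11.9 RPKM in the differentiated lanes, against 12.1 and 13.5 RPKM and 6.94 and 7.13 RPKM in the undifferentiated lanes. Their log2 ratios were 0.89 and 0.73, between the bounds. Foxm1, the activator of mitotic genes, had 24.2 and 24.5 RPKM in the differentiated and 16.5 and 18.0 RPKM in the undifferentiated lanes (0.47). Beside 19.1% higher and 8.46% lower of all rows at the floor, none of its 16 listed mitotic targets passed 2-fold. Their median was -0.43, on the other side of 0 from Foxm1 itself, while that of all rows at the floor was 0.12. The lowest were Ccnb1, cyclin B1, at 125 ± 1.84 RPKM in the differentiated and 237 ± 1.58 RPKM in the undifferentiated library (-0.92), Ccnb2 at 54.9 ± 4.36 and 95.3 ± 7.55 RPKM in the same order (-0.79), and the kinase gene Aurka at 34.9 ± 3.96 and 59.8 ± 0.569 RPKM (-0.76).

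FoxJ and FoxN genes differed among themselves. Foxj2 had 7.78 and 9.37 RPKM in the differentiated and 1.49 and 1.71 RPKM in the undifferentiated lanes (1.88), while its relative Foxj3, known from muscle fibres, had 17.5 and 16.7 RPKM in the differentiated and 16.2 and 16.4 RPKM in the undifferentiated lanes (0.07). Foxj1, the switch of motile cilia, was below the floor, at 0.241 ± 0.0548 RPKM in the differentiated and 0.389 ± 0.272 RPKM in the undifferentiated library, and its lanes overlapped. Among motile cilium genes, 9 of 12 passed the floor, 1 of them higher and 2 lower, beside 19.1% higher and 8.46% lower of all rows there. The median of the 9 was -0.57, and that of all 12 was -0.10. Rfx2, a cilium regulator also active in testis, was at 3.13 ± 0.368 and 25.7 ± 0.136 RPKM in the same order (-2.69), its relative Rfx3 at 4.48 ± 2.04 and 0.502 ± 0.0151 RPKM (1.87), and Hydin, which encodes a protein of the ciliary axoneme, at 0.267 ± 0.0216 and 1.64 ± 0.400 RPKM (-1.06).

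Foxn3, a repressor linked to checkpoints, had 11.5 and 12.5 RPKM in the differentiated and 4.09 and 4.22 RPKM in the undifferentiated lanes (1.34). Foxn2 had 11.1 and 5.61 RPKM in the differentiated lanes and 8.14 and 14.8 RPKM in the undifferentiated lanes. Its lanes overlapped, and the log2 ratio was 0.41 in lane 1 and -1.26 in lane 2, so no direction can be given. Foxr1 had 0.197 and 0.232 RPKM in the differentiated and 0.993 and 1.10 RPKM in the undifferentiated lanes (-0.75), just inside the floor. With a pseudocount of 0.1 RPKM, Foxr1 was lower at -1.87.

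Only a few members were silent in both libraries. With less than 0.1 RPKM in all 4 lanes, 3 members were called silent, Foxe3 of the lens, Foxi1 of the inner ear and kidney, and Foxi2, 6.82% of the family beside 14.1% of all rows. Foxi1 was listed at 0 in both differentiated lanes and at 0 and 0.0445 RPKM in the undifferentiated lanes. Foxi2 had 0.0300 and 0.0155 RPKM in the differentiated lanes and 0 in both undifferentiated lanes. Foxe3 had 0.0619 and 0.0320 RPKM in the differentiated and 0.0271 and 0 RPKM in the undifferentiated lanes, from 3 reads and 1 read. The models hold few reads at such levels, so expression below them was not detectable at this depth.

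Another 13 members stayed below 1 RPKM in both means. Besides Foxa3, Foxd2, Foxd4, Foxj1, Foxl1 and Foxo6, described above, they were Foxb1 of the hypothalamus and Foxb2, Foxe1 of the thyroid, Foxn1 of the thymus, Foxn4 of retinal progenitors, Foxr2 and Foxs1. Foxn1 was at 0.280 ± 0.00837 RPKM in the differentiated and 0.0483 ± 0.0133 RPKM in the undifferentiated library, Foxe1 at 0.341 ± 0.0558 and 0.220 ± 0.0605 RPKM in the same order, and Foxb1 at 0.257 ± 0.116 and 0.0628 ± 0.0509 RPKM. These 3 were higher in each differentiated lane than in any undifferentiated lane. Foxn4 was at 0.165 ± 0.0270 RPKM in the differentiated and 0.865 ± 0.589 RPKM in the undifferentiated library, and Foxr2 at 0.0356 ± 0.00798 and 0.319 ± 0.0369 RPKM. Both had lower values in each differentiated lane. Foxb2, at 0.0609 ± 0.000769 and 0.105 ± 0.149 RPKM, and Foxs1, at 0.116 ± 0.0637 and 0.0523 ± 0.0454 RPKM, had overlapping lanes.

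Summed by subfamily letter, FoxA and FoxQ held larger shares and FoxD, FoxH and FoxI smaller shares of the family in the differentiated library. FoxP held 28.5% of the family sum in the differentiated and 27.1% in the undifferentiated library. The undifferentiated share includes the lane 2 value of Foxp3. Without Foxp3 in the family sum, FoxP held 28.5% in the differentiated and 22.8% in the undifferentiated library. FoxP without Foxp3 summed to 83.9 and 86.7 RPKM in the differentiated and 40.5 RPKM in both undifferentiated lanes. FoxA held 8.18% in the differentiated and 0.254% in the undifferentiated library, and FoxQ, with Foxq1 alone, 7.24% and 0.210% in the same order. FoxD held 1.80% in the differentiated and 13.5% in the undifferentiated library, FoxH 1.07% and 5.55%, and FoxI 0.159% and 2.23% in the same order. FoxK held 12.3% and 10.5%, FoxO 12.2% and 11.3%, FoxJ 8.64% and 9.69%, FoxM 8.12% and 9.16%, and FoxN 6.94% and 8.78%. FoxC summed to 4.74 ± 0.126 RPKM in the differentiated and 0.284 ± 0.0444 RPKM in the undifferentiated library, and FoxF to 5.14 ± 0.950 and 0.00945 ± 0.0134 RPKM in the same order. FoxL held 0.501% of the family sum in the differentiated and 0.0612% in the undifferentiated library, and FoxR 0.0833% and 0.725%. FoxB, FoxE and FoxS had mean sums of at most 0.388 RPKM in either library.

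**Figure D4:**
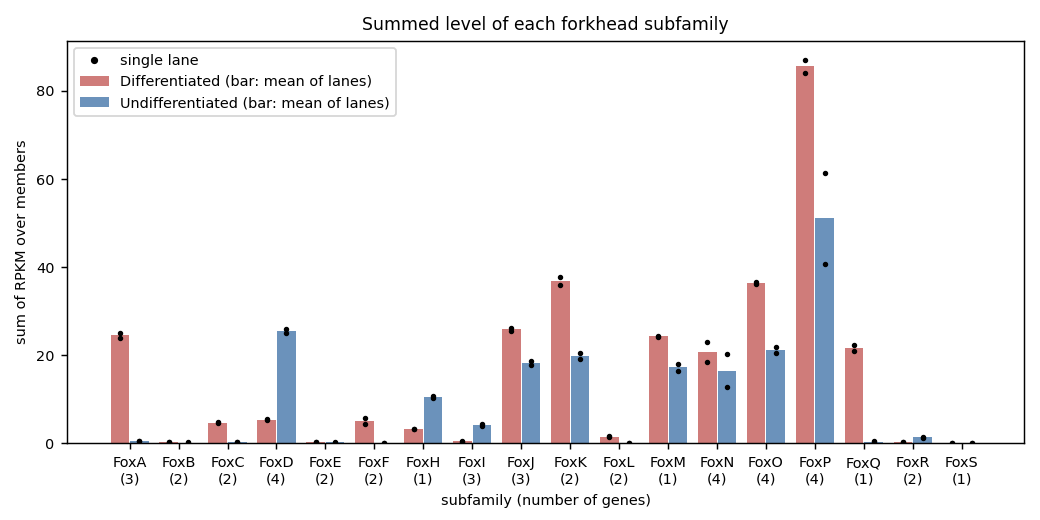
Sum of RPKM over the genes of 18 forkhead subfamilies, with the differentiated bar left of the undifferentiated bar; bars are means of lanes and dots are single lanes. FoxA and FoxQ are near 0 in the undifferentiated library, FoxD is higher there, and the split undifferentiated dots of FoxP come from Foxp3.

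First exons were compared in the 13 forkhead genes with more than 1 annotated start, of which 6 summed to at least 5 RPKM in both libraries: Foxj3, Foxk2, Foxm1, Foxp1, Foxp2 and Foxp4. None differed by 30 percentage points in the share of a first exon. No share over all genes with more than 1 start was worked out, so this count cannot be called unusual or ordinary. The largest difference was in Foxp2, whose first exon at 15146949 to 15147127 on chromosome 6 held 26.0% and 27.3% of the gene in the differentiated lanes and 44.6% and 57.7% in the undifferentiated lanes. Its share was lower by 24.0 points in the differentiated means, and the lanes of the libraries did not overlap. In Foxp1, neighbouring first exons were exchanged between lanes. The one at 98978668 to 98978935 held 0% and 38.3% in the differentiated lanes and 33.8% and 0% in the undifferentiated lanes. Foxn3, which passed only at a sum of 1 RPKM, showed a like exchange, as its most upstream first exon held 4.92% and 56.5% in the differentiated lanes and 2.79% and 35.2% in the undifferentiated lanes. Shares of Foxo3 and Foxj3 differed by at most 0.276 points between the library means.

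**Figure D5:**
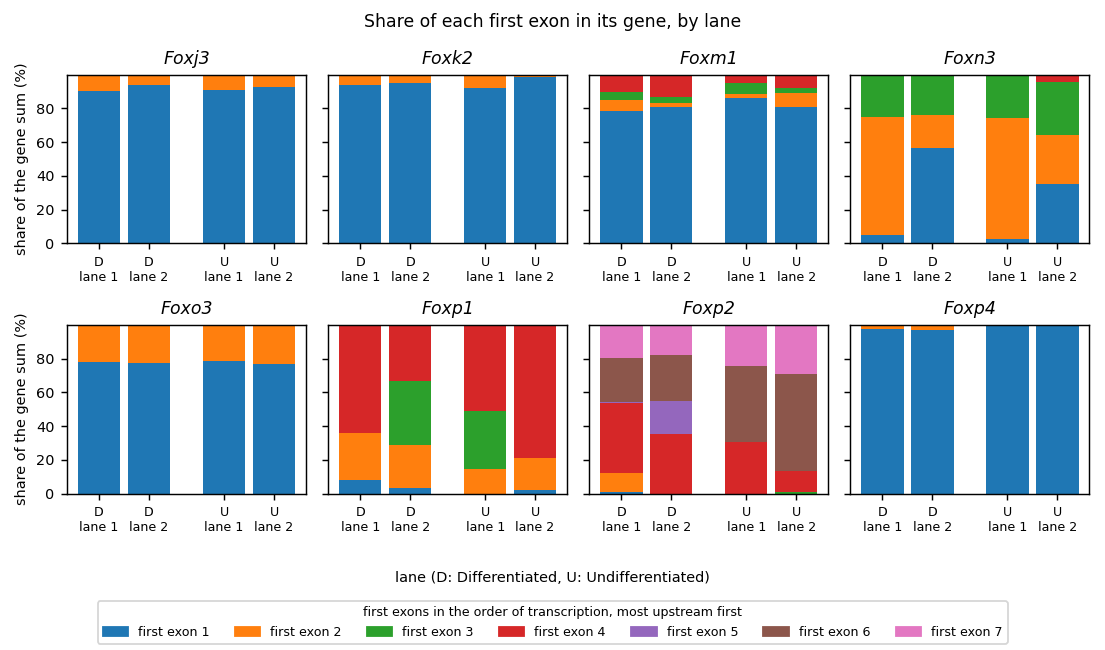
Share of each annotated first exon in the RPKM sum of its gene, in percent, for 8 forkhead genes with at least 1 RPKM in both libraries, with differentiated lanes left of undifferentiated lanes. Foxj3, Foxk2, Foxo3 and Foxp4 use 1 first exon for most of their signal in every lane, while Foxn3 and Foxp1 differ more between lanes than between libraries.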

How the data were processed

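mRNA of 1 differentiated and 1 undifferentiated culture was sequenced on 2 lanes each as 36 bp reads, per the labels' protocols. The authors deposited RPKM values per lane and their means for genes, first exons and transcripts, on mm9, the build that the submitters' processing notes name. The tables do not name the unit. It was read as RPKM because in 7925 single-exon models 82.3% to 82.6% of low values, times length, lay within 5% of a read of whole multiples of a constant, which also gave the depth. Not given in the sources used here were aligner, counter, annotation and the handling of reads with several matches. Rows of Ncoa3, Galnt2 and Gm7808 join distant loci and span the sites of 7 forkhead genes; shared exons were not checked. Coordinates count the first base as 1.

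With 1 library per group no test was run. Ratios used a pseudocount of 1 RPKM, a floor of 1 RPKM in either library and a 2-fold bound. Every member was named, and of the pathway and target lists up to 3 genes at the floor with the largest absolute ratio. Of these, 1 member and 1 listed gene are counted but not reported here. The members and lists were chosen with earlier results of these data known. Alternatives were a pseudocount of 0.1 RPKM, 4 scalings, single lanes, other floors, lanes within 2-fold and other bounds for silence and first exons. Symbols were matched to RefSeq names of GRCm38.p6. Intervals cover counting error only and treat reads as independent. The steps were tested on simulated data and run in Python 3.11.15 with pandas 2.3.3 and scipy 1.17.1.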

Additional observations from a re-analysis of the deposited data

How the results depend on the processing

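No paired analysis was possible because each group has 1 library, and no library could be left out; single lanes took that place. The count of 13 higher genes was 11 to 16 under the scalings, 13 and 14 in the single lanes and 14 with a pseudocount of 0.1 RPKM; a floor of 5 RPKM left 6. The count of 4 lower genes was 3 to 5 throughout, and 3 in lane 1 and with lanes within 2-fold, where Foxp3 was not called. Lower shares of all rows ran from 4.43% with no floor to 11.6% with a pseudocount of 0.1 RPKM. Higher shares of all rows at the floor were 16.2%, 17.5% and 16.5% with median-centred, trimmed-mean and upper-quartile scaling, beside 11 higher members each. With equal-sum scaling the share was 24.7%, beside 16 higher members. A pseudocount of 0.1 RPKM gave 24.7%, and a floor of 5 RPKM gave 20.6%. Among the scalings, the count of higher members was largest where the higher share of all rows was largest. The median log2 ratio of 0.90 stayed positive: 0.76 centred on the median of all rows, 0.82 with trimmed-mean, 0.78 with upper-quartile and 1.14 with equal-sum scaling, 1.03 with a pseudocount of 0.1 RPKM, 1.04 in lane 1, 0.91 in lane 2, 0.40 with no floor, 0.80 at a floor of 5 RPKM and 0.92 with lanes within 2-fold. These scalings moved the median of all rows by -0.12, -0.07, -0.11 and 0.21. Silent members numbered 2 below 0.05 RPKM and 7 below 0.3 RPKM. At 20 percentage points 1 gene, Foxp2, had a first-exon share difference. Of 196 gene ratios recomputed, 180 kept their call, and 19 of 28 genes kept it in all 7 settings. Foxp3 turned to 0.00 (0.00362) in lane 1; the cause was not tested. Foxk2, Foxo4 and Foxp1 were called higher with equal sums. At this depth, values of a few hundredths of an RPKM rest on a few reads.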
